A study of Homo sapiens with 6 samples.

Results

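The 9 genes described here are established transcriptional targets of the tumor suppressor p53: CDKN1A, MDM2, SESN1, TP53I3, FAS, GDF15, RRM2B, ZMAT3 and TP53INP1. They were chosen by symbol, and all 9 were found among the 19469 genes of the count table. L3.6pl, a human pancreatic cancer line of metastatic origin recorded in the labels as adenosquamous, was sorted by FACS on surface L1CAM without any treatment. The 3 L1high libraries came from the cells labelled L1CAM_POSITIVE and the 3 L1low libraries from those labelled L1CAM_NEGATIVE. The sample characteristics spell the line L6.6pl, whereas the titles give L3.6pl. The labels do not say whether the libraries of a group came from separate cultures or sorts, so the p-values measure the spread between these libraries, which may be technical.

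p53 is a transcription factor that is held low by the ubiquitin ligase MDM2 and is stabilized by DNA damage, oncogene activity and other stress. It binds a response element made of adjoining 10-base units and switches on genes that stop the cell cycle, repair DNA, adapt metabolism or trigger cell death. MDM2 is itself a target, which closes a negative feedback loop. The p53 pathway is among those most often disrupted in pancreatic cancer, and the relatives p63 and p73 bind much the same DNA sequence.

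Response elements were looked for in the reference genome because this sequence is what the targets are expected to share. The members were chosen as established p53 targets, so a larger share of matches among them is not independent of that choice. The p53 consensus was searched as 2 adjoining 10-base units with C at position 4 and G at position 7 of each, allowing at least 18 of 20 bases to match, within 2500 bases on either side of the first RefSeq start of each gene. The consensus reads the same on both strands, so a single pass covers them. A match was present in 5 of the 7 members that had a RefSeq start here, and in 432 of 11535 tested genes with such a start (3.75%). Among the other p53 targets described later it was present in 10 of 35 (28.6%), and among targets of the DREAM complex in 1 of 14 (7.14%). These 5 sequences are shown on the strand of the gene, with the 20 matching bases in capitals and 5 flanking bases on each side:
CDKN1A: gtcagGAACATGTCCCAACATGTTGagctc
MDM2: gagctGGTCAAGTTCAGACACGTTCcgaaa
FAS: ctcctGGACAAGCCCTGACAAGCCAagcca
GDF15: attgcCATCTTGCCCAGACTTGTCTcgaac
ZMAT3: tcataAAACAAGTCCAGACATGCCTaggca

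The CDKN1A match lies at chr6:36676449-36676468 on the plus strand of GRCh38, centred 2255 bases before the RefSeq start used for the search, and at the outer edge of the longer span that GENCODE gives the gene. That of GDF15 lies at chr19:18385308-18385327, plus strand, 840 bases before the RefSeq start and within the longer GENCODE span. The matches of MDM2 (chr12:68808923-68808942, plus strand), FAS (chr10:88991309-88991328, plus strand) and ZMAT3 (chr3:179070188-179070207, minus strand) lie in intron 1 of the canonical transcript, 761, 521 and 1611 bases after the RefSeq start. The ZMAT3 sequence matched the consensus at all 20 bases and the others at 18. No match of this kind was found within the window for SESN1 or TP53I3, which says only that these letters are absent there, and RRM2B and TP53INP1 were not scanned. A match describes the reference sequence and is not a measurement of p53 binding in these cells.

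Each library held between 16334610 and 21064685 counts. The sorting marker L1CAM stood at 83.95, 69.8 and 89.5 CPM (counts per 1e6 counts of the library, scaled by TMM factors) in the L1high libraries and at 17.7, 23.7 and 19.99 CPM in the L1low libraries, a log2 fold change of -1.99. Positive log2 values stand for higher expression in the L1low group throughout. All 6 epithelial markers examined were measured, summed at 3005 to 3435 CPM in L1high and 3293 to 3518 CPM in L1low cells. KRT8 was the highest in L1high and KRT19 in L1low cells. Of these 6 markers, 1 was called higher, KRT19 (log2 fold change 0.63), and 2 lower, EPCAM (-0.30) and CLDN4 (-0.35). Over all genes tested, 4.58% were called higher and 3.37% lower. In 5 of the 6 markers the log2 fold change was below 0, with a median of -0.13. Of 8 fibroblast and stellate markers, 3 were measured (LUM, ACTA2 and COL3A1), summed at 86.7 to 98.5 CPM in L1high and 140 to 160 CPM in L1low cells. Most of that sum was LUM, which was called higher (log2 fold change 0.78, adjusted p = 1.3e-04 in edgeR's test). ACTA2 (0.26) and COL3A1 (0.29) also had positive log2 fold changes but were not called. The measured leukocyte and endothelial markers were CD68 (1 of 5, log2 fold change 0.21) and PECAM1 (1 of 4, 0.25), and neither was called. Of the neural markers, 0 of 4 were measured.

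Between the sorted populations, 2 of the 9 p53 targets passed the test, and both were lower in L1low cells: the secreted stress cytokine GDF15 and the death receptor FAS. The cell cycle inhibitor CDKN1A and the feedback regulator MDM2, the targets most often read as markers of p53 activity, were not called. In all, 4 members had a positive and 5 a negative log2 fold change. The median was -0.11 against -0.01 over the 19467 genes tested. The median size of the log2 fold change, regardless of sign, was 0.17 for the members and 0.15 for all genes. Of all genes tested, 7.95% were called at an adjusted p under 0.05, 4.58% higher and 3.37% lower in L1low cells. In the fits of all 6 libraries by group only, without a block for the replicate number, none of the members was called higher by edgeR or by DESeq2. Still, 2 higher members (CDKN1A and TP53INP1) had an unadjusted p under 0.05 in edgeR's test. Without L1high replicate 3, a library that the study's own comparison leaves out, the log2 fold changes were -0.61 for GDF15 and -0.44 for FAS, with adjusted p of 0.028 and 0.016 in edgeR's test. In bulk libraries, fewer cells expressing a gene and less RNA per cell cannot be told apart.

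**Figure D1:**
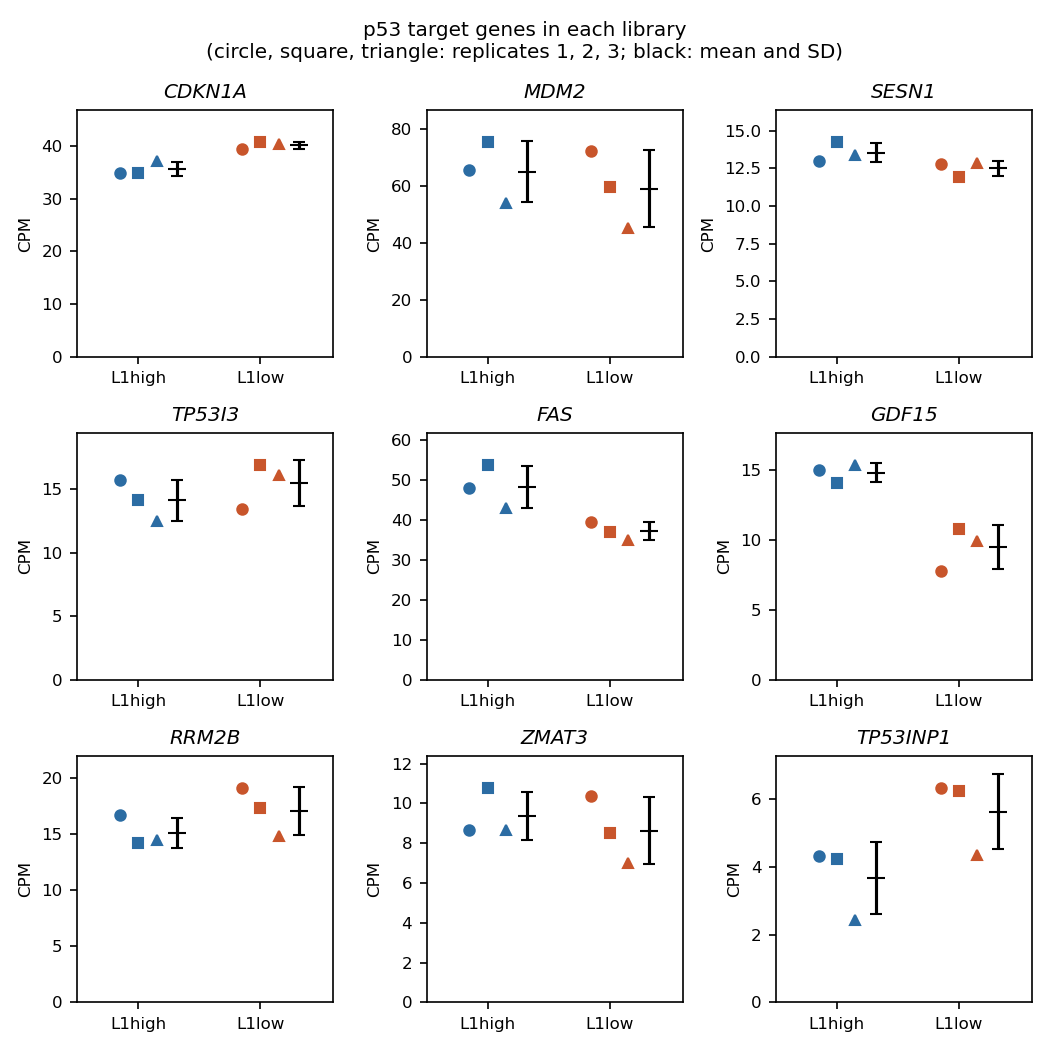
Level of each p53 target gene (CPM, vertical axes from 0) in the 3 L1high (blue) and 3 L1low (orange) libraries, with replicates 1, 2 and 3 as circle, square and triangle and the group mean and SD in black. GDF15 and FAS separate by group, with every L1low library below every L1high library, while MDM2 and ZMAT3 range widely within both groups. The groups also do not overlap for SESN1 (L1low below) or for CDKN1A and TP53INP1 (L1low above), which were not called.

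GDF15, a secreted protein of the TGF-beta superfamily that is released by stressed cells, showed the largest log2 fold change among the members in the fit of all 6 libraries. Its level was 15.04, 14.1 and 15.4 CPM in L1high replicates 1, 2 and 3, from 319, 289 and 252 counts. In L1low replicates 1, 2 and 3 it was 7.76, 10.8 and 9.94 CPM, from 141, 194 and 176 counts. The L1high libraries lay close together and all L1low libraries lay below them, with L1low replicate 1 the lowest. GDF15 (ENSG00000130513, chr19:18374731-18389176, plus strand, GRCh38) fell from 14.8 ± 0.668 to 9.50 ± 1.57 CPM (SD, n = 3 each). The log2 fold change was -0.64 (standard error 0.13, 95% confidence interval -0.93 to -0.35), with an adjusted p of 0.012 in edgeR's quasi-likelihood test. The call was lost when L1high replicate 1 was left out (-0.63, adjusted p = 0.063 in the same edgeR test). The microRNA gene MIR3189 lies within GDF15 on the same strand and was not analysed here.

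FAS is a cell surface receptor that triggers apoptosis through FADD and caspase-8 when its ligand binds. It stood at 48.0, 53.6 and 43.0 CPM in L1high replicates 1, 2 and 3, and at 39.5, 37.0 and 35.0 CPM in the L1low libraries. Here too the groups did not overlap, but the gap between the lowest L1high and the highest L1low library was narrow. FAS (ENSG00000026103, chr10:88953813-89029605, plus strand) fell from 48.2 ± 5.30 to 37.1 ± 2.25 CPM (SD, n = 3 each), a log2 fold change of -0.38 (standard error 0.10, 95% confidence interval -0.59 to -0.17) with an adjusted p of 0.034 in edgeR's test. This call held in 2 of the 6 fits that each left out a library. It was lost without L1high replicate 1, L1high replicate 2, L1low replicate 2 or L1low replicate 3, with log2 fold changes of -0.38, -0.29, -0.37 and -0.33 and adjusted p of 0.13, 0.086, 0.14 and 0.11. In the annotation used here the span of FAS overlaps that of STAMBPL1, a deubiquitinase gene on the same strand, although their canonical transcripts do not overlap. STAMBPL1 was also lower in L1low cells (log2 fold change -0.57, adjusted p = 0.0092 in edgeR's test), and the sources used here do not say how reads shared between overlapping genes were treated.

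Of 11 other genes of the FAS pathway, 10 were tested, and 0 were called by edgeR or DESeq2, with 1 at an unadjusted p under 0.05. With 7.95% of all genes called, a count of 0 among so few genes is near the background. Their log2 fold changes ran from -0.20 to 0.22 with a median of -0.08. TNFRSF10B, another p53-induced death receptor, stood at 127, 125 and 128 CPM in L1high replicates 1, 2 and 3 and at 135, 140 and 142 CPM in the L1low libraries (log2 fold change 0.13, adjusted p = 0.22 from edgeR). Its direction was thus opposite to that of FAS, but it was not called.

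CDKN1A encodes p21, an inhibitor of cyclin-dependent kinases through which p53 arrests the cell cycle. It was measured at 34.8, 34.8 and 37.2 CPM in L1high replicates 1, 2 and 3 and at 39.3, 40.7 and 40.3 CPM in the L1low libraries. All 3 L1low libraries lay above all 3 L1high libraries, by a small margin. The mean was 35.6 ± 1.40 CPM in L1high and 40.1 ± 0.687 CPM in L1low cells (SD, n = 3 each), and the log2 fold change was 0.17 (standard error 0.08, 95% confidence interval 0.0014 to 0.34). After adjustment the difference was not called (adjusted p = 0.21 in edgeR's test), nor was it under any of the 12 alternative settings, where the adjusted p ran from 0.18 to 0.46. The interval covers levels from 0.1% to 26.9% higher in L1low cells for CDKN1A (ENSG00000124762, chr6:36676460-36687337, plus strand).

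MDM2, the E3 ligase that marks p53 for degradation, varied more within the groups than between them. Its level was 65.6, 75.3 and 53.9 CPM in L1high replicates 1, 2 and 3 and 72.4, 59.6 and 45.3 CPM in L1low replicates 1, 2 and 3. The highest library of either group was thus well above the lowest of the other. MDM2 (ENSG00000135679, chr12:68808177-68845544, plus strand) had a log2 fold change of -0.14 (standard error 0.16, 95% confidence interval -0.48 to 0.20, adjusted p = 0.64 in edgeR's test), and the sign turned without L1low replicate 3 (0.03). A processed pseudogene and an antisense lncRNA measured in the table lie within its span. A protein-coding gene with the symbol CPM (not the unit) overlaps the MDM2 span on the opposite strand, although their canonical transcripts do not overlap. That gene was called lower in L1low cells (log2 fold change -0.41, adjusted p = 0.018 in edgeR's test). From 802 to 1547 counts per library, the interval of MDM2 spans levels from 28.2% lower to 15.1% higher in L1low cells.

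Among the metabolic and repair targets, none was called. SESN1 (ENSG00000080546, chr6:108984309-109094846, minus strand), a sestrin that restrains mTORC1 signaling, stood at 12.96, 14.2 and 13.4 CPM in L1high and 12.8, 11.9 and 12.8 CPM in L1low cells. Its groups did not overlap, yet the gap was far smaller than the spread within a group (log2 fold change -0.11, standard error 0.10, adjusted p = 0.56 from edgeR). RRM2B (ENSG00000048392, chr8:102204502-102238961, minus strand), the p53-induced small subunit of ribonucleotide reductase that supplies deoxynucleotides for repair, stood at 16.7, 14.2 and 14.4 CPM in L1high and 19.1, 17.3 and 14.9 CPM in L1low cells. These groups overlapped, and the log2 fold change of 0.18 (standard error 0.12) was not called (adjusted p = 0.42 from edgeR). TP53I3 (ENSG00000115129, chr2:24077433-24085861, minus strand), a quinone oxidoreductase linked to oxidative stress, stood at 15.7, 14.2 and 12.5 CPM in L1high and 13.4, 16.9 and 16.2 CPM in L1low cells, again with overlap (log2 fold change 0.13, standard error 0.13, adjusted p = 0.59 from edgeR).

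The remaining members are regulators of low abundance. ZMAT3 (ENSG00000172667, chr3:178960121-179072215, minus strand), a zinc finger protein that binds RNA and carried the best match to the p53 consensus above, stood at 8.67, 10.8 and 8.65 CPM in L1high and 10.3, 8.53 and 7.003 CPM in L1low cells. The groups overlapped at a log2 fold change of -0.12 ± 0.16 (standard error), with an adjusted p of 0.70 in edgeR's test, and the sign turned without L1low replicate 3 (0.02). TP53INP1 (ENSG00000164938, chr8:94925972-94949378, minus strand), a nuclear protein that promotes p53-dependent cell death and autophagy, was the least abundant member, at 4.34, 4.24 and 2.44 CPM in L1high and 6.33, 6.24 and 4.35 CPM in L1low cells, from 40 to 115 counts. L1high replicate 3 was the lowest library. The lowest L1low library, replicate 3 (4.35 CPM), exceeded the highest L1high library, replicate 1 (4.34 CPM), by very little. The log2 fold change of TP53INP1 was 0.60, nearly as large as that of GDF15, but with the widest error of the members (standard error 0.23, 95% confidence interval 0.11 to 1.10), and it was not called (adjusted p = 0.13 from edgeR). Genes on the opposite strand overlap CDKN1A, MDM2, SESN1, TP53I3, FAS and TP53INP1, and since the strand setting of the counting is not given in the sources used here, reads of such pairs may not be told apart.

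**Figure D2:**
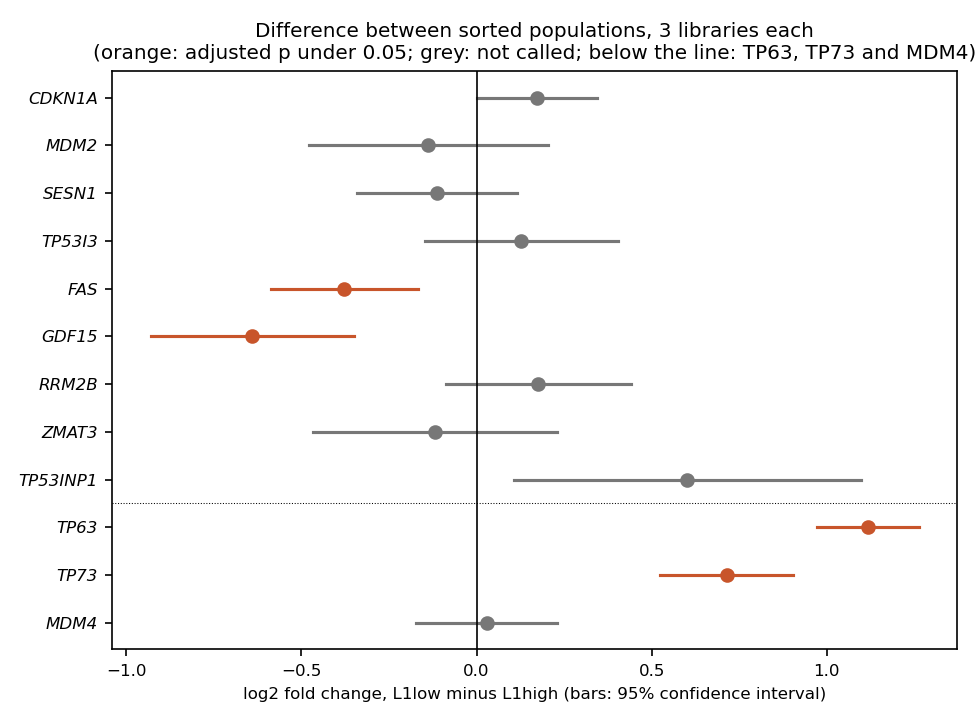
Log2 fold change (L1low minus L1high, horizontal axis) of the 9 p53 target genes and, below the dotted line, of TP63, TP73 and MDM4, with 95% confidence intervals from edgeR's quasi-likelihood fit to 3 libraries per group. Orange marks an adjusted p under 0.05: GDF15 and FAS lie below 0, TP63 (1.12) and TP73 (0.71) above it, and MDM4 at 0.03.

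Every L1low library lay above or below all L1high libraries in 5 of the 9 members, 2 above and 3 below. Over all genes tested the same held for 28.8% (15.1% above and 13.7% below). The members also differed between libraries of the same group. L1high replicate 3 was the lowest L1high library in 5 of the 9 genes, and L1low replicate 3 was the lowest L1low library in 5. For MDM2, FAS, ZMAT3 and TP53INP1 both held. Replicate 3 was the shallowest library among the L1high ones, while the L1low libraries had similar totals.

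Compared per length of the canonical transcript, and pooled over both groups, CDKN1A was the most abundant member, at 17.9 ± 1.26 RPKM (SD, n = 6 libraries). FAS (11.5 ± 1.91 RPKM) and GDF15 (10.1 ± 2.59 RPKM) followed, then TP53I3 (8.96 ± 1.04 RPKM) and MDM2 (8.28 ± 1.52 RPKM). These 4 neighbours in the order overlapped in range. RRM2B (3.37 ± 0.405 RPKM) and SESN1 (2.30 ± 0.134 RPKM) were lower, and did not overlap with each other. ZMAT3 (1.01 ± 0.153 RPKM) and TP53INP1 (0.830 ± 0.260 RPKM) were the lowest, and their ranges overlapped. The lowest CDKN1A library, at 16.4 RPKM, was above the highest FAS library, at 14.5 RPKM. Within the L1low group the order differed, with TP53I3 (9.37 RPKM on average) above GDF15 (7.92 RPKM) and TP53INP1 (1.01 RPKM) above ZMAT3 (0.965 RPKM).

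A wider list of 46 other p53 targets, of which 41 were tested, moved in both directions. It held 21 genes with a positive and 20 with a negative log2 fold change, with a median of 0.07. Of these, 3 were called higher by edgeR and 0 lower, and 1 was called lower by DESeq2. At an unadjusted p under 0.05 in edgeR's test, 9 were higher and 5 lower. The 3 called by edgeR were 7.3% of the list, against the 7.95% called over all genes. XPC, which recognizes DNA damage in nucleotide excision repair, rose from 28.9, 30.7 and 30.1 CPM in L1high to 36.8, 41.4 and 41.5 CPM in L1low cells (log2 fold change 0.42, standard error 0.09, adjusted p = 0.012 from edgeR). SERTAD1, a regulator of CDK4 and E2F activity, rose from 23.3, 19.7 and 21.7 CPM to 29.0, 28.3 and 31.5 CPM (log2 fold change 0.46, standard error 0.10, adjusted p = 0.014 from edgeR). TGFA, a ligand of the EGF receptor, rose from 48.9, 49.6 and 44.7 CPM to 57.9, 58.3 and 59.4 CPM (log2 fold change 0.29 ± 0.07, standard error, with an adjusted p of 0.035 in edgeR's test). The calls depended on single libraries: 0 to 4 genes of the list were called when a library was left out, 0 of them without L1low replicate 2 and 1 without L1high replicate 1. TGFA was called in 1 of these 6 fits, XPC in 4 and SERTAD1 in 5.

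The apoptosis genes BAX (log2 fold change 0.09, adjusted p = 0.53 from edgeR) and BBC3, which encodes PUMA (0.24, adjusted p = 0.38), were not called. The nuclease gene AEN came nearest to a call among the lower genes of the list (-0.33, adjusted p = 0.052 from edgeR), and it was called by DESeq2 (adjusted p = 0.047). SFN, encoding the G2 arrest protein 14-3-3 sigma, was the most abundant of these named targets, at 292 to 319 CPM in L1high and 342 to 366 CPM in L1low cells. Its groups did not overlap, and its log2 fold change of 0.22 had an adjusted p of 0.057 in edgeR's test.

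Of the genes that encode relatives of p53, both measured here were higher in L1low cells. TP63, a lineage factor of basal and squamous epithelium, rose from 314, 301 and 283 CPM in L1high to 667, 668 and 614 CPM in L1low cells (log2 fold change 1.12, standard error 0.07, adjusted p = 4.7e-06 from edgeR). TP73 rose from 37.7, 33.3 and 40.5 CPM to 60.8, 62.0 and 60.0 CPM (log2 fold change 0.71, standard error 0.09, adjusted p = 3.8e-04 from edgeR). Both were called under all 12 alternative settings.

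Of the 20 genes for the p53 family and its regulators, 5 were called higher and 0 lower by both edgeR and DESeq2, with 1 lower gene at an unadjusted p under 0.05, against 4.58% of all genes called higher. Without L1high replicate 1 or without L1low replicate 2, 3 were called. PPP1R13L, which encodes the p53 inhibitor iASPP, rose from 108, 104 and 118 CPM to 141, 154 and 149 CPM (log2 fold change 0.42, standard error 0.07, adjusted p = 0.0040 from edgeR). The coactivator and acetyltransferase gene CREBBP rose from 54.9, 50.8 and 57.7 CPM to 65.9, 70.5 and 67.6 CPM (log2 fold change 0.32 ± 0.08, standard error, with an adjusted p of 0.024 in edgeR's test), a call kept in 4 of 6 fits that left out a library. MDM4, the partner of MDM2 in restraining p53, stood at 52.6, 57.2 and 52.7 CPM in L1high and 61.4, 55.7 and 48.7 CPM in L1low cells (log2 fold change 0.03, 95% confidence interval -0.17 to 0.23, adjusted p = 0.89 from edgeR).

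**Figure D3:**
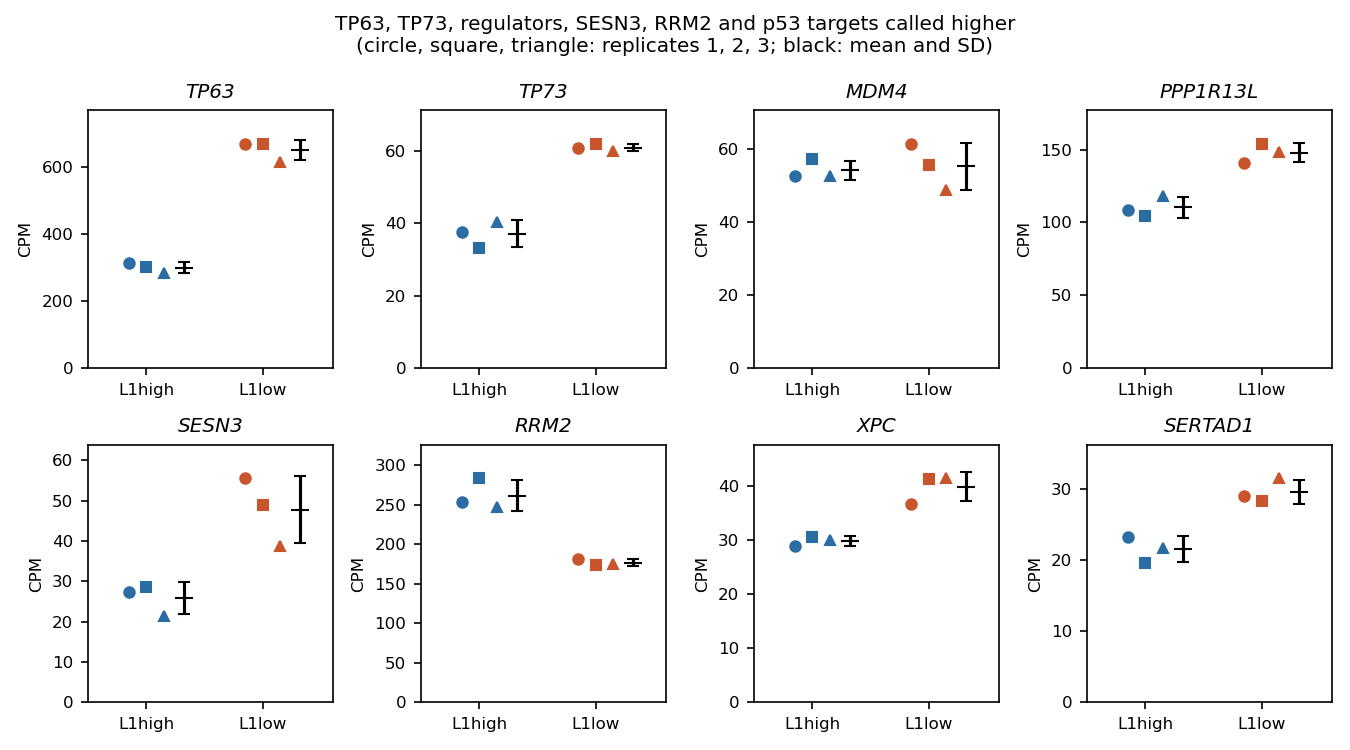
Level (CPM, vertical axes from 0) of TP63, TP73, MDM4, PPP1R13L, SESN3, RRM2, XPC and SERTAD1 in the 3 L1high (blue) and 3 L1low (orange) libraries, with replicates 1, 2 and 3 as circle, square and triangle and the group mean and SD in black. MDM4 overlaps between the groups, RRM2 is lower and the remaining genes are higher in every L1low library.

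Of the paralogs of the members, 8 were tested and 2 were called, in opposite directions, against 7.95% of all genes called. SESN3, a sestrin regulated by FOXO factors, rose from 27.4, 28.7 and 21.3 CPM in L1high to 55.6, 49.0 and 38.9 CPM in L1low cells (log2 fold change 0.89, standard error 0.14, adjusted p = 0.0025 from edgeR). RRM2, the S-phase counterpart of RRM2B, fell from 254, 284 and 248 CPM to 182, 173 and 176 CPM (log2 fold change -0.56, standard error 0.07, adjusted p = 4.3e-04 from edgeR). Both were called under all 12 alternative settings, but whether SESN3 differed from SESN1, or RRM2 from RRM2B, in its change was not tested. The other paralogs measured were SESN2 (log2 fold change 0.16), RRM1 (-0.05), TP53INP2 (0.17), CDKN1B (0.21) and ZMAT2 (0.01), along with MDM4, and none of these was called by edgeR or DESeq2.

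The kinases that p21 inhibits and genes that it can lower were examined beside CDKN1A, which was itself not called. A list of 16 tested genes held CDK inhibitors, G1 cyclins, their kinases, the RB family and E2F1. Of these, 3 were called lower and 0 higher by both edgeR and DESeq2, with 1 higher gene at an unadjusted p under 0.05. In edgeR's test this was 18.8% of the list, against 7.95% of all genes called, and the difference was not tested. The 3 were the G1 cyclins CCNE2 (log2 fold change -0.54) and CCND3 (-0.38) and the transcription factor E2F1 (-0.51), and between 0 and 2 genes were called when a library was left out, 0 without L1low replicate 2 and 1 without L1low replicate 3. Of 16 genes repressed by the DREAM complex, through which p21 lowers cell cycle genes, 7 were called lower and 0 higher by both tools, with 1 higher gene at an unadjusted p under 0.05. Their median log2 fold change was -0.19, and 15 of 16 were below 0. The called share was 43.8% of this list, against 7.95% of all genes, and the difference was not tested. Any link of these lower levels to p21 was not tested.

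CDK1, the mitotic kinase, had the largest change among these DREAM targets, from 204, 216 and 177 CPM in L1high to 143, 132 and 115 CPM in L1low cells (log2 fold change -0.62, standard error 0.09, adjusted p = 0.0019 from edgeR). The phosphatase gene CDC25A (-0.50), the cyclin gene CCNA2 (-0.37) and the mitotic kinase gene AURKA (-0.30) were also called lower. The number called in this list ran from 1 to 6 when a library was left out. It was 1 without L1low replicate 2, 2 without L1high replicate 1, and 4 without L1high replicate 2 or without L1low replicate 3. CDK1 was called in all of these fits.

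Of 10 immediate early and heat shock genes that respond to cell sorting, 5 were called higher in L1low cells and 0 lower by both edgeR and DESeq2, with 0 lower at an unadjusted p under 0.05, against 4.58% of all genes called higher. The called genes were immediate early genes, and the heat shock genes HSPA1A (log2 fold change 0.02) and HSPA1B (-0.05), near-identical copies that can share reads, were not called. The summed level of the list was 8268 to 8890 CPM in L1high and 10187 to 10924 CPM in L1low cells. Among the called genes were ATF3 (log2 fold change 0.49), FOSB (0.43), IER2 (0.37) and EGR1 (0.32), and 2 to 5 genes of this list were called when a library was left out, 2 without L1high replicate 1 or L1low replicate 2 and 3 without L1high replicate 2. Of 8 genes of the integrated stress response, through which GDF15 can also be induced, 2 were called higher, DDIT4 (0.97) and ATF3, which stands in both lists, and 0 lower by edgeR or DESeq2, with 1 lower at an unadjusted p under 0.05. Over all genes tested, 4.58% were called higher. In this list 6 genes had a positive and 2 a negative log2 fold change, TRIB3 (-0.20) and ASNS (-0.17). ATF4 itself stood at 0.04 and was not called. The part of these differences, and of the higher LUM level, in the values of the p53 targets was not tested.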

How the data were processed

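Per the labels and the methods of the study, the authors sequenced stranded mRNA libraries of sorted L3.6pl cells, aligned paired-end reads to GRCh38 with BWA, used featureCounts to count them over the genes of Ensembl release 94, and deposited these read counts without normalization. Versions and counting options are not given in the sources used here. BWA does not split reads over splice junctions. All 19469 genes reached over 1 CPM in 2 or more of the 6 libraries, which leaves genes of lower expression not analysed here. The labels also name DESeq2, and the study's own comparison leaves out L1high replicate 3 without a stated reason. All 6 libraries were used here, since nothing in the labels sets that library apart.

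The L1low and L1high groups were compared by the quasi-likelihood test of edgeR 4.0.16 under R 4.3.3 (TMM factors, and filterByExpr, which kept 19467 genes). P-values were adjusted over all genes tested after Benjamini and Hochberg, with calls at an adjusted p under 0.05. Standard errors are the log2 fold change divided by the square root of F, and 95% intervals use the test's degrees of freedom. CPM carry TMM factors (0.984 to 1.01). RPKM divide CPM by the length of the canonical transcript of GENCODE release 44, which also gave symbols and coordinates; 125 genes had no symbol. RefSeq starts (GRCh38.p14) and the hg38 sequence gave the motif matches. Even the closest pair of libraries within a group had a chi-square statistic 3.66 times its degrees of freedom, which is more than counting noise; this does not show that they are independent cultures.

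The members and lists were chosen with earlier results of these data known, and the lists come from general knowledge. Named genes are the members, L1CAM, TP63, TP73, MDM4, measured paralogs, the 4 largest called changes of each list and the most abundant markers; 1 gene that this rule also names is not reported here. AEN, SFN, BAX, BBC3, TNFRSF10B, STAMBPL1, ACTA2, COL3A1, KRT8, HSPA1A, HSPA1B and the gene with the symbol CPM were chosen after their values were seen. The same holds for EPCAM, CLDN4, ATF4, TRIB3 and ASNS. Alternatives were each library left out (without L1high replicate 3 being the study's choice), a block for the replicate number, RLE factors, library totals, DESeq2 1.42.0, no filter, and at least 10 counts in every library.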

Additional observations from a re-analysis of the deposited data

How the results depend on the processing

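Over 684 values of 57 results under 12 alternatives each, 601 kept their direction and call or, for counts, stayed within 1.5 times. When a library was left out, the number of genes called ran from 627 to 1473 (393 to 859 higher and 234 to 614 lower), lowest without L1low replicate 2, and 674 (425 and 249) without L1high replicate 1. The members called ran from 0 (without L1high replicate 1) to 2, all of them lower. Called genes ran from 0 to 4 for the other p53 targets, 3 to 5 for the p53 family and regulators, 0 to 2 for the CDK inhibitors and G1 cyclin kinases, 1 to 6 for the DREAM targets and 2 to 5 for the sorting stress genes. Log2 fold changes ran from -0.44 to -0.29 for FAS, from -0.74 to -0.51 for GDF15, from -0.31 to 0.032 for MDM2, from -0.27 to 0.020 for ZMAT3, from -0.054 to 0.12 for MDM4 and from -0.024 to 0.047 for ZMAT2. With library totals only, 5 of the other p53 targets were called and ZMAT2 stood at -0.00096. The cause of these changes was not tested. Filters changed no call of a member, and the one on low counts removed 2 genes.

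Replicate numbers shared by the groups were not shown to pair the samples. The deviations of same-numbered libraries correlated at 0.12, 0.097 and 0.29 over genes, and those of differently numbered libraries at -0.20 to 0.11. L1high replicate 2 correlated slightly better with L1low replicate 1 (0.11) than with L1low replicate 2 (0.097). With the replicate number as a block, 2363 genes were called (1220 higher and 1143 lower), 3 members (TP53INP1 being called higher, the 1 such member, at 0.63 with an adjusted p of 0.023 in edgeR's test) and 9 of the other p53 targets. Standard errors of the members ran from 0.08 to 0.23, the largest for TP53INP1, which had the fewest counts, although MDM2, with the most counts, had 0.16. Of all members, TP53INP1 had the largest log2 fold change in size without L1high replicate 1 (0.74), L1high replicate 2 (0.71) or L1low replicate 3 (0.77).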
